A study of Rattus norvegicus with 6 samples.

Results

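Krüppel-like factors (KLFs) were described by their transcripts in rat bone marrow mesenchymal stem cells (BMSCs), for 10 genes selected by symbol in the table of gene counts: Klf2, Klf3, Klf4, Klf5, Klf6, Klf7, Klf9, Klf10, Klf11 and Klf13. These were 10 of 33508 genes in the table, and all 10 had enough counts to be tested. The table held 7 further KLF genes, of which Klf8, Klf14 and Klf17 had 0 counts in every library. RNA-seq was performed on 3 libraries of BMSCs-OE-FNDC5, which carried a lentivirus overexpressing FNDC5, and 3 libraries of BMSCs-OE-NC, which carried the blank vector. Both groups had been exposed to hypoxia with serum deprivation (H/SD) for 24 h, at 1% O2, 94% N2 and 5% CO2 in medium without glucose or serum, so neither a normoxic nor an untransduced group stood beside them. By the methods of the study, the cells came from the femur and tibia marrow of 2-month-old male Sprague-Dawley rats and had been passaged 3 times. FNDC5 is the membrane-bound precursor of the myokine irisin. The libraries were numbered as biological replicates, but separate rats, cultures or transductions were not given in the sources used here, and p-values then measure the spread between these libraries, which may be technical.

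KLFs are transcription factors whose carboxy-terminal C2H2 zinc fingers bind GC boxes and CACCC boxes in promoters, and they share this DNA-binding domain with the Sp factors. Their amino-terminal parts differ and recruit either coactivators such as p300 or corepressors such as CtBP and Sin3A, so that different KLFs can act in opposite directions on the same kind of site. In mesenchymal cells several of them are known to act on the choice between fat, bone and smooth muscle fates, and others respond quickly to serum, shear stress, TGF-beta or glucocorticoids.

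Promoter sequences from RefSeq (rat build GRCr8, 250 bases before to 50 bases after the start) were matched for 7 of the 10 genes, namely Klf3, Klf4, Klf5, Klf6, Klf7, Klf9 and Klf11. Those of Klf9, Klf6 and Klf5 are shown because all 3 genes were lower in BMSCs-OE-FNDC5 and the start used in the RefSeq table is the outermost start of the gene. Klf9 lies on the plus strand at chr1:230126396-230126695, Klf6 on the minus strand at chr17:69458429-69458728 and Klf5 on the plus strand at chr15:82471831-82472130. Each is written 5′ to 3′ on the strand of its gene. Capitals mark the CCAAT box (CCAAT, or ATTGG on the other strand) and the GC box (GGGCGG, or CCGCCC on the other strand), the kind of site that Sp factors and KLFs bind.
Klf9: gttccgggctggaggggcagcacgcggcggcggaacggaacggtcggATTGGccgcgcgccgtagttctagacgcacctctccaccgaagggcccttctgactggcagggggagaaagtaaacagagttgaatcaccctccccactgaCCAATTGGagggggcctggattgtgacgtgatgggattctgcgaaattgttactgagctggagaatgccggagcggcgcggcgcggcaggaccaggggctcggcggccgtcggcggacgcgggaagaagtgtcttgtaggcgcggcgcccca
Klf6: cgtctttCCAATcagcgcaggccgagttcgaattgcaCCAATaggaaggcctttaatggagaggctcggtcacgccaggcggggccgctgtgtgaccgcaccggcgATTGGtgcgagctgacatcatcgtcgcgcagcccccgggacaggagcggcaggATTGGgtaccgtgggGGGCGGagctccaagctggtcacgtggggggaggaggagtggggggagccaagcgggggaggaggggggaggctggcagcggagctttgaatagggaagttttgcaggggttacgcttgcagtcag
Klf5: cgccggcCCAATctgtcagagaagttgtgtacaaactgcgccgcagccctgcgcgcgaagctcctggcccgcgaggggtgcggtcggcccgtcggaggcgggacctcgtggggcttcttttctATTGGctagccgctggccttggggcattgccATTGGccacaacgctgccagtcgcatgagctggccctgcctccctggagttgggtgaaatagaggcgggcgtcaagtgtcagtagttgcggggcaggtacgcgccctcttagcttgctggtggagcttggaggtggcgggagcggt
The CCAAT box was present 3 times in the window of Klf9, 4 times in that of Klf6 and 3 times in that of Klf5. In the Klf9 sequence a pair of these matches overlaps, as CCAATTGG reads as the box on both strands. Across the 7 windows, 5 held a CCAAT box, against 37.5% of 33469 rat promoters of the same length. The GC box was in 4 of 7 windows, with 7 matches in Klf11 and 1 each in Klf3, Klf6 and Klf7, against 33.1% of all promoters. The CACCC box (CCACCC or its complement) was in 2 of 7, Klf3 and Klf7, against 29.4% of all promoters. No CCAAT box was in the windows of Klf4 and Klf7. The starts used for Klf3, Klf4, Klf7 and Klf11 lie 8592, 590, 111 and 136 bases inside the outermost start of the gene, so their windows do not cover the same part of the promoter as those of Klf9, Klf6 and Klf5. The search covered 4 more motifs. The HIF core (ACGTG) was in 3 of 7 windows, against 19.3% of all promoters, and the CArG box in 1 of 7, against 1.64%. The TATA box (TATAAA) was in 1 of 7, against 14.2%, and the CRE (TGACGTCA) in 0 of 7, against 1.83%. The motifs were chosen after the expression values had been seen, both strands were searched, and a match describes letters in the window.

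Total counts were 16640635 to 17229490 in BMSCs-OE-FNDC5 and 17430287 to 17965722 in BMSCs-OE-NC, and TMM scaling, which takes a trimmed mean of M values, gave factors of 0.877 to 0.882 in BMSCs-OE-FNDC5 and 1.13 to 1.14 in BMSCs-OE-NC. Fndc5 averaged 4334 ± 79.1 CPM (counts scaled by TMM to a common library size) in BMSCs-OE-FNDC5 and 1.06 ± 0.208 CPM in BMSCs-OE-NC (SD, n = 3 each), as labelled. All 9 markers of mesenchymal stem cells were tested, of which 3 were higher in BMSCs-OE-FNDC5, 5 were lower and 1 did not pass, with a median log2 fold change of -0.34. When the trend of counts with gene length was removed, 4 were higher and 4 lower, with a median of 0.39. With library size as the only scaling, 1 was higher and 6 were lower, with a median of -0.71. The summed level of the 9 markers was 5207 to 5606 CPM in BMSCs-OE-FNDC5 and 7082 to 7647 CPM in BMSCs-OE-NC. Macrophage markers summed to 198 to 206 CPM in BMSCs-OE-FNDC5 and 98.2 to 103 CPM in BMSCs-OE-NC, nearly all of it Cd14, while Adgre1 and Cd163 were at 0. Endothelial markers summed to 90.6 to 94.0 CPM in BMSCs-OE-FNDC5 and 51.8 to 55.3 CPM in BMSCs-OE-NC, nearly all of it Egfl7, with Cdh5, Kdr, Tie1, Cldn5 and Emcn at 0. Epithelial markers summed to 2.66 to 4.31 CPM in BMSCs-OE-FNDC5 and 1.52 to 2.02 CPM in BMSCs-OE-NC, all from the marker Krt8 and the few counts of Cldn4, with 4 of 6 markers at 0. Lymphocyte markers were at 0 in BMSCs-OE-FNDC5 and at most 0.152 CPM in BMSCs-OE-NC. Of the erythroid list, 4 of 6 genes were in the table, with Hbb and Alas2 at 0, and the list summed to 2.59 to 3.44 CPM in BMSCs-OE-FNDC5 and 1.06 to 1.74 CPM in BMSCs-OE-NC. The part of these differences in the results for KLFs was not tested, and in bulk RNA fewer cells of a type cannot be told apart from less RNA per cell.

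The question the comparison addresses is which transcripts of stressed BMSCs differ when FNDC5 is overexpressed. Of the 10 KLFs, only Klf4 was higher in BMSCs-OE-FNDC5, by a factor of 2.01, and 7 were lower: Klf3, Klf5, Klf6, Klf7, Klf9, Klf11 and Klf13. Klf9 fell the most, 3.86-fold, followed by Klf7 and Klf6. Klf2 and Klf10 did not pass the test. A gene passed at an adjusted p under 0.05 from edgeR's quasi-likelihood test with Benjamini-Hochberg adjustment over 12104 genes. By this rule 75.7% of all genes tested passed, 36.9% as higher and 38.8% as lower in BMSCs-OE-FNDC5, so that 8 of 10 passing was close to the share of all genes. With an absolute log2 fold change over 1 required as well, 1 KLF was higher and 3 were lower, against 9.84% and 17.5% of all genes. The median log2 fold change of the 10 KLFs was -0.67, against -0.04 for all genes tested. Values of the BMSCs-OE-FNDC5 libraries and the BMSCs-OE-NC libraries did not overlap for 8 of the 10 genes, 7 of them as lower and 1 as higher. Such a separation was found in 78.3% of all genes tested, 40.4% as lower and 37.9% as higher.

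**Figure D1:**
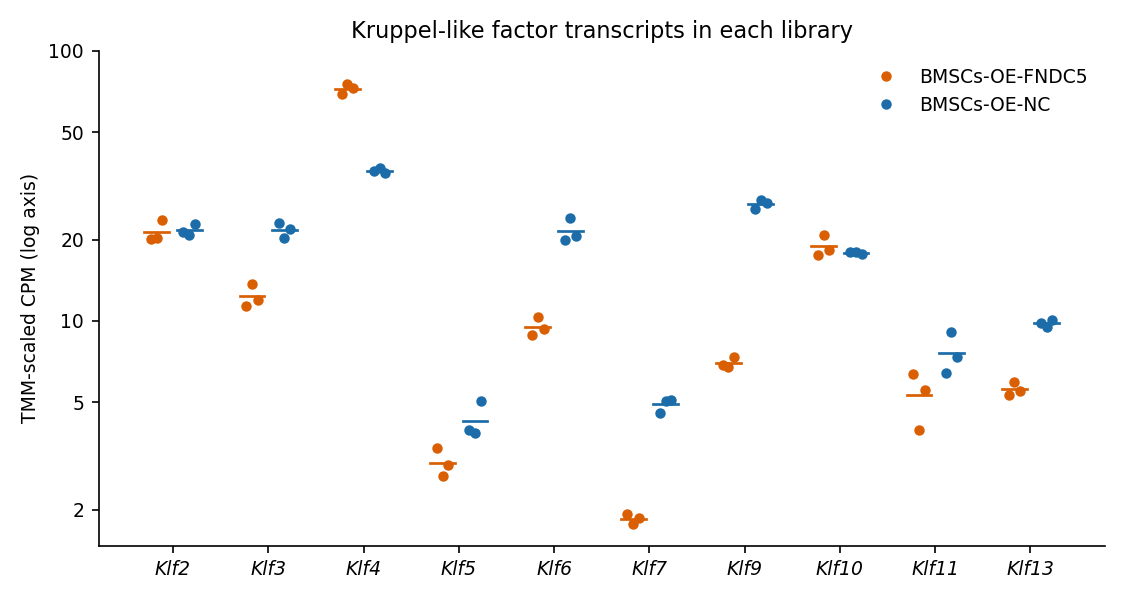
Levels of the 10 KLFs in TMM-scaled CPM (log axis) in each library, with BMSCs-OE-FNDC5 and BMSCs-OE-NC marked separately 3 points for each group and a line at the group mean. Klf4 lay at 69.0 to 75.2 CPM in BMSCs-OE-FNDC5 and 35.2 to 36.9 CPM in BMSCs-OE-NC, Klf9 lay at 6.75 to 7.35 CPM and 25.8 to 28.0 CPM, and the points of Klf2 and Klf10 overlapped between groups.

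Gene length and scaling both bore on these values. The 10 KLFs had a median length of 2922 bases in the table, against 2262 bases for all genes tested. When the trend of counts with gene length was removed in each library, Klf3, Klf5 and Klf11 no longer passed, Klf2 passed as lower and Klf10 passed as higher. This gave 2 KLFs higher and 5 lower, beside 4623 genes higher and 4060 lower among all 12104 tested. The median over the 10 KLFs was then -0.31, against 0.03 for all genes. With library size as the only scaling, which moved the median of all genes by -0.37, the KLFs were 1 higher and 9 lower, and all genes split into 2659 higher and 6709 lower, against 4469 and 4692 with TMM. Klf4 stayed higher, and Klf6, Klf7, Klf9 and Klf13 stayed lower and past the test, in each of 17 alternative analyses.

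**Figure D2:**
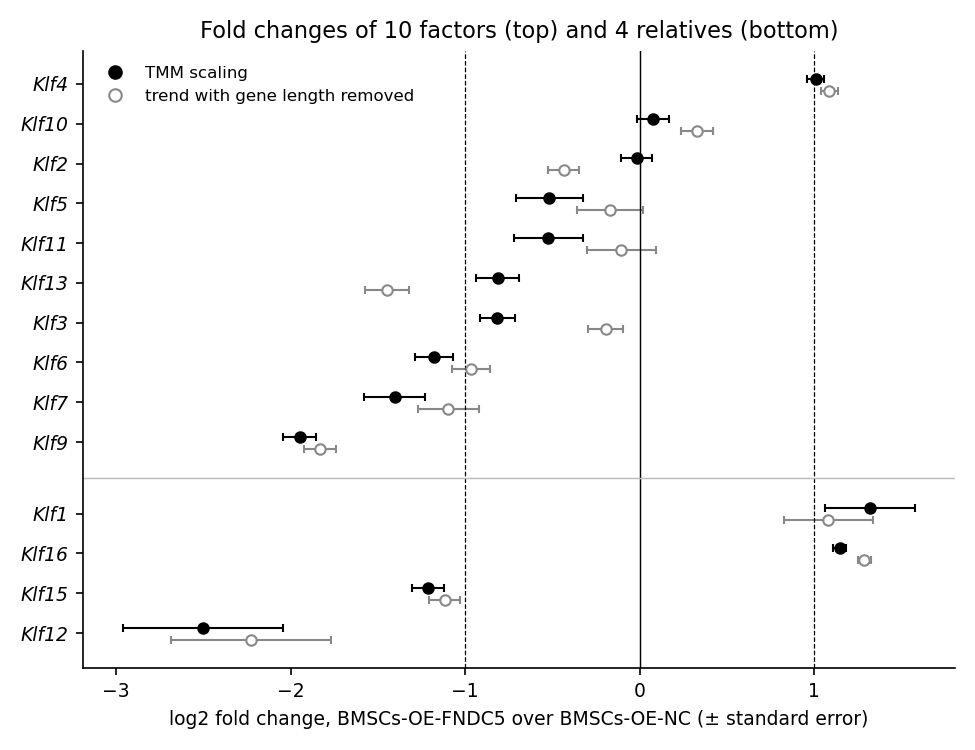
Log2 fold change of each of the 10 KLFs and, below the grey line, of the 4 other tested KLFs (BMSCs-OE-FNDC5 over NC), with the standard error in edgeR as bars, filled for TMM scaling and open after the trend with gene length was removed. Dashed lines mark a log2 fold change of -1 and 1. Klf9 stood at -1.95 and -1.83, Klf4 at 1.01 and 1.09, and Klf3 at -0.81 and -0.19.

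Klf4 and Klf2 are close relatives that the MEKK-MEK5-ERK5-MEF2 route is known to induce in endothelium, where both restrain inflammatory genes. Klf4 is also a reprogramming factor and a regulator of smooth muscle genes. Klf4 (ENSRNOG00000016299, chromosome 5, 72283313 to 72287669 in the build of the table, minus strand) had 69.0, 75.2 and 73.0 CPM in BMSCs-OE-FNDC5, against 35.8, 36.9 and 35.2 CPM in BMSCs-OE-NC. Every BMSCs-OE-FNDC5 library was thus well above every BMSCs-OE-NC library, with little spread within either group. The log2 fold change of Klf4 was 1.01 (standard error 0.05, adjusted p = 6.1e-09 in edgeR), with counts of 1043 to 1103 in BMSCs-OE-FNDC5 and 697 to 740 in BMSCs-OE-NC. Leaving out single libraries moved it between 0.98 and 1.05, on both sides of a fold threshold of 1.

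Klf2, which in mouse preadipocytes holds back fat differentiation by repressing Pparg, showed a different picture. Klf2 (ENSRNOG00000014205, chromosome 16, 19223087 to 19225037, minus strand) had 20.2, 20.3 and 23.7 CPM in BMSCs-OE-FNDC5 and 21.3, 20.8 and 22.8 CPM in BMSCs-OE-NC. The groups overlapped, and the log2 fold change of Klf2 was -0.02 (standard error 0.09, adjusted p = 0.87 in edgeR). It passed as lower at -0.44 after the trend with gene length was removed and at -0.39 with library size as the only scaling, which moved the median of all genes by as much as it moved Klf2. The log2 ratio of Klf2 to Klf4 counts per kilobase within a library, which does not depend on the scaling between libraries, was -0.60 ± 0.136 in BMSCs-OE-FNDC5 and 0.43 ± 0.0988 in BMSCs-OE-NC (SD, n = 3 each). Klf4 exceeded Klf2 per length in all 3 BMSCs-OE-FNDC5 libraries, and Klf2 exceeded Klf4 per length in all 3 BMSCs-OE-NC libraries. The order in BMSCs-OE-NC rests on the gene lengths in the table, 1056 bases for Klf2 and 2366 for Klf4. Before division by length, Klf4 had more counts than Klf2 in every library, with 697 to 740 against 418 to 451 in BMSCs-OE-NC. The difference of -1.03 had a two-sided exact permutation p of 0.1, the smallest that 3 against 3 libraries allow, and 0.2 after adjustment over the 5 pairs compared. From the fit with the length trend removed, the difference of Klf2 and Klf4 was -1.52.

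Klf9 and Klf13 belong to the group of short KLFs that bind Sin3A through their amino-terminal part. Klf9 is known as a target of glucocorticoid and thyroid hormone receptors. Klf9 (ENSRNOG00000014215, chromosome 1, 240908483 to 240933198, plus strand) had 6.88, 6.75 and 7.35 CPM in BMSCs-OE-FNDC5, against 25.8, 28.0 and 27.3 CPM in BMSCs-OE-NC. All libraries of BMSCs-OE-FNDC5 were far below all those of BMSCs-OE-NC. The log2 fold change of Klf9 was -1.95 (standard error 0.09, adjusted p = 6.1e-09 in edgeR), from 99 to 111 counts in BMSCs-OE-FNDC5 and 526 to 561 counts in BMSCs-OE-NC. Of all genes tested, 3.64% had a lower log2 fold change. Over the 17 alternatives the value of Klf9 lay between -2.32 and -1.61.

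Klf13 is known as an activator of Ccl5 in T cells. Klf13 (ENSRNOG00000015822, chromosome 1, 124772596 to 124803363, minus strand) had 5.29, 5.93 and 5.50 CPM in BMSCs-OE-FNDC5 and 9.78, 9.52 and 10.1 CPM in BMSCs-OE-NC. Its groups did not overlap either, and the log2 fold change of Klf13 was -0.81 (standard error 0.12, adjusted p = 1.1e-04 in edgeR). Its counting model in the table was only 602 bases long, and with the length trend removed the log2 fold change of Klf13 was -1.45. Within libraries, the log2 ratio of Klf9 to Klf13 was -1.73 ± 0.124 in BMSCs-OE-FNDC5 and -0.60 ± 0.0805 in BMSCs-OE-NC (SD, n = 3 each). The difference of -1.14 had the smallest possible exact permutation p of 0.1 (0.2 adjusted over 5 pairs), with no overlap between the groups. From the fit with the length trend removed, the difference of Klf9 and Klf13 was -0.38. That offset is set by the gene lengths in the table, 602 bases for Klf13, and the cause of this change was not tested.

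Klf6 and Klf7 form another pair of relatives. Klf6 is an early response gene of injured and stellate cells with tumour suppressor functions, and Klf7 acts in neurite outgrowth and is known to hold back adipocyte differentiation. Klf6 (ENSRNOG00000016885, chromosome 17, 67887939 to 67945037, minus strand) had 8.86, 10.3 and 9.34 CPM in BMSCs-OE-FNDC5, against 20.0, 24.0 and 20.6 CPM in BMSCs-OE-NC. The log2 fold change of Klf6 was -1.18 (standard error 0.11, adjusted p = 1.9e-06 in edgeR). Klf7 (ENSRNOG00000046242, chromosome 9, 70740480 to 70787913, minus strand) had 1.92, 1.77 and 1.85 CPM in BMSCs-OE-FNDC5, against 4.57, 5.03 and 5.10 CPM in BMSCs-OE-NC. Both genes were lower in every BMSCs-OE-FNDC5 library, and Klf7 rested on 26 to 29 counts there and 93 to 101 counts in BMSCs-OE-NC. The log2 fold change of Klf7 was -1.40 (standard error 0.18, adjusted p = 2.2e-05 in edgeR). The first part of Klf7 shares 70787136 to 70787913 with a gene model on the same strand, AABR07067882.1, which had 0 counts in all libraries. The log2 ratio of Klf6 to Klf7 was 2.53 ± 0.167 in BMSCs-OE-FNDC5 and 2.30 ± 0.119 in BMSCs-OE-NC, with overlapping ranges (difference 0.23, exact permutation p = 0.2, adjusted 0.2, n = 3 each).

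Klf10 and Klf11 are the TGF-beta-inducible early genes, whose proteins repress Smad7 and other genes through Sin3A. Klf10 (ENSRNOG00000006118, chromosome 7, 77156006 to 77162148, minus strand) had 17.5, 20.8 and 18.3 CPM in BMSCs-OE-FNDC5 and 18.0, 18.0 and 17.6 CPM in BMSCs-OE-NC. The groups overlapped, and the log2 fold change of Klf10 was 0.08 (standard error 0.09, adjusted p = 0.47 in edgeR). Its sign depended on scaling, with 0.33 (adjusted p = 0.0074) after removal of the length trend and -0.29 (adjusted p = 0.013) with library size only. Klf11 (ENSRNOG00000054259, chromosome 6, 43829945 to 43841651, plus strand) had 6.35, 3.96 and 5.56 CPM in BMSCs-OE-FNDC5 and 6.44, 9.07 and 7.32 CPM in BMSCs-OE-NC. The highest BMSCs-OE-FNDC5 library and the lowest BMSCs-OE-NC library nearly touched. The log2 fold change of Klf11 was -0.52 (standard error 0.20, adjusted p = 0.031 in edgeR). The call of Klf11 was lost without BMSCs-OE-NC replicate 2 (-0.39, adjusted p = 0.13), without BMSCs-OE-NC replicate 3 (-0.56, 0.054), without BMSCs-OE-FNDC5 replicate 2 (-0.35, 0.11) and without BMSCs-OE-FNDC5 replicate 3 (-0.56, 0.051). The log2 ratio of Klf10 to Klf11 was 2.2 ± 0.482 in BMSCs-OE-FNDC5 and 1.59 ± 0.248 in BMSCs-OE-NC (difference 0.61, exact permutation p = 0.2, adjusted 0.2, n = 3 each).

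Klf3 is a repressor that recruits CtBP, and Klf5 is an activator of proliferating cells that promotes early adipocyte differentiation in mouse. Klf3 (ENSRNOG00000002163, chromosome 14, 45142769 to 45165207, minus strand) had 11.4, 13.6 and 12.0 CPM in BMSCs-OE-FNDC5, against 22.9, 20.3 and 21.9 CPM in BMSCs-OE-NC. The groups were well apart, and the log2 fold change of Klf3 was -0.81 (standard error 0.10, adjusted p = 2.1e-05 in edgeR). Its model of 4987 bases was the longest of the 10, and with the length trend removed the log2 fold change of Klf3 was -0.19 (adjusted p = 0.11). Klf5 (ENSRNOG00000008785, chromosome 15, 83703791 to 83722921, plus strand) had 3.37, 2.66 and 2.91 CPM in BMSCs-OE-FNDC5 and 3.93, 3.84 and 5.05 CPM in BMSCs-OE-NC. It rested on 39 to 51 counts in BMSCs-OE-FNDC5 and 77 to 100 counts in BMSCs-OE-NC, and the groups did not overlap. The log2 fold change of Klf5 was -0.52 (standard error 0.19, adjusted p = 0.029 in edgeR). The call of Klf5 was lost without BMSCs-OE-NC replicate 3 (-0.39, adjusted p = 0.12), without BMSCs-OE-FNDC5 replicate 2 (-0.44, 0.078) and without BMSCs-OE-FNDC5 replicate 3 (-0.50, 0.061). The log2 ratio of Klf3 to Klf5 was 1.50 ± 0.302 in BMSCs-OE-FNDC5 and 1.80 ± 0.219 in BMSCs-OE-NC (difference -0.30, exact permutation p = 0.2, adjusted 0.2, n = 3 each).

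**Figure D3:**
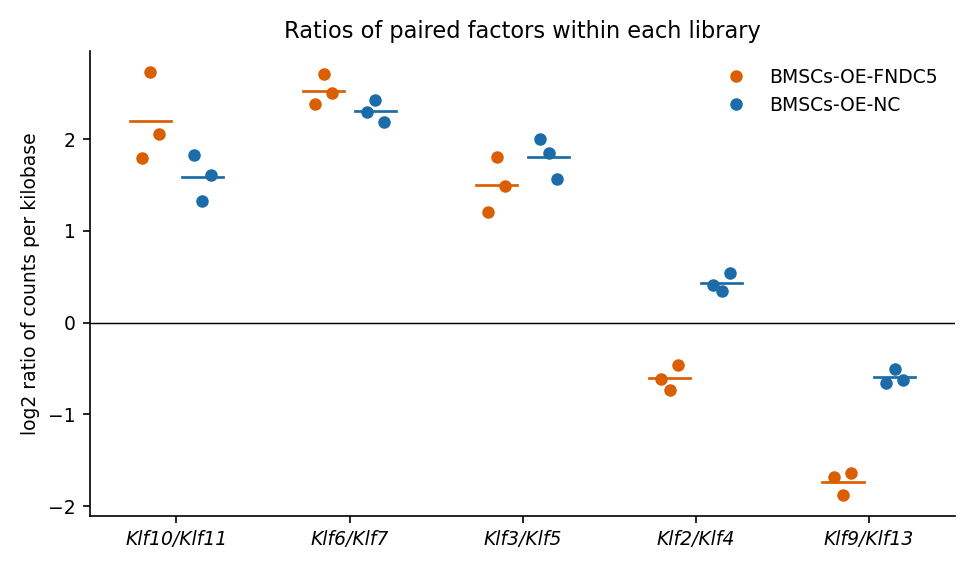
Log2 ratio of counts per kilobase within each library for 5 pairs of KLFs, BMSCs-OE-FNDC5 and BMSCs-OE-NC with 3 points each and a line at the mean. The points of Klf2/Klf4 and Klf9/Klf13 were separate between groups, with differences of -1.03 and -1.14, and those of the other 3 pairs overlapped.

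Levels of different genes were compared only per length, as the deposited FPKM, which divides the count by gene length and by 1 constant per library. In BMSCs-OE-FNDC5 the order was Klf4 with 30.6 ± 1.36 FPKM, Klf2 with 20.3 ± 1.93, Klf13 with 9.27 ± 0.548, Klf10 with 6.31 ± 0.580, Klf6 with 3.33 ± 0.258, Klf9 with 2.79 ± 0.128, Klf3 with 2.48 ± 0.236, Klf11 with 1.40 ± 0.322, Klf5 with 0.876 ± 0.106 and Klf7 with 0.577 ± 0.0224 FPKM (SD, n = 3). Only the neighbours Klf9 and Klf3 overlapped between libraries. In BMSCs-OE-NC the order was Klf2 with 20.1 ± 0.890 FPKM, Klf13 with 16.0 ± 0.438, Klf4 with 14.9 ± 0.385, Klf9 with 10.6 ± 0.421, Klf6 with 7.42 ± 0.748, Klf10 with 5.88 ± 0.0927, Klf3 with 4.28 ± 0.262, Klf11 with 1.98 ± 0.350, Klf7 with 1.50 ± 0.0868 and Klf5 with 1.23 ± 0.191 FPKM (SD, n = 3). There only Klf7 and Klf5 overlapped. Klf4 was thus at place 1 in BMSCs-OE-FNDC5 and at place 3 in BMSCs-OE-NC, and Klf9 was at place 6 in BMSCs-OE-FNDC5 and at place 4 in BMSCs-OE-NC. The places of Klf13 and Klf2 rest on their short models, of 602 and 1056 bases.

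The summed FPKM of the 10 genes was 74.3 to 80.2 in BMSCs-OE-FNDC5 and 82.5 to 84.9 in BMSCs-OE-NC. The size of this gap depends on the scaling between libraries. In CPM, which is not divided by length, the 10 genes summed with TMM to 150.7 to 161.3 in BMSCs-OE-FNDC5 and 168.6 to 175.4 in BMSCs-OE-NC. With library size as the only scaling, these sums were 132.6 to 142.1 CPM in BMSCs-OE-FNDC5 and 191.1 to 199.8 CPM in BMSCs-OE-NC. Klf4 made up 39.3 ± 0.812% of the summed FPKM in BMSCs-OE-FNDC5 and 17.8 ± 0.539% in BMSCs-OE-NC (SD, n = 3 each). Klf9 made up 3.58 ± 0.161% in BMSCs-OE-FNDC5 and 12.6 ± 0.346% in BMSCs-OE-NC. These shares do not depend on the scaling between libraries, but they do depend on the gene lengths in the table. Klf13 took 11.9% in BMSCs-OE-FNDC5 and 19.1% in BMSCs-OE-NC, and Klf6 took 4.28% in BMSCs-OE-FNDC5 and 8.84% in BMSCs-OE-NC. Klf2 took 26.0% in BMSCs-OE-FNDC5 and 24.0% in BMSCs-OE-NC, with overlapping libraries.

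**Figure D4:**
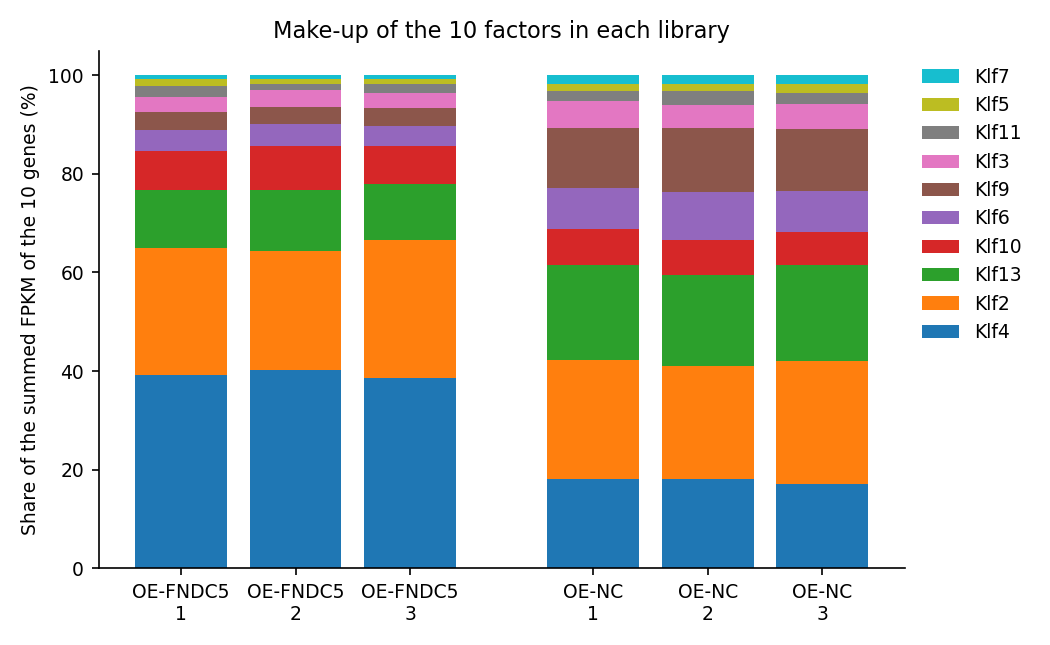
Share of each KLF in the summed FPKM of the 10 genes, in percent, as stacked bars for each of the 3 BMSCs-OE-FNDC5 libraries and the 3 BMSCs-OE-NC libraries. Klf4 took 38.5 to 40.1% in BMSCs-OE-FNDC5 and 17.2 to 18.2% in BMSCs-OE-NC, and Klf9 took 3.40 to 3.69% in BMSCs-OE-FNDC5 and 12.3 to 13.0% in BMSCs-OE-NC.

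Of the other 7 KLF genes, 4 were tested, and 2 were higher and 2 lower in BMSCs-OE-FNDC5 under each of 4 other scalings too. Klf16, a short KLF related to Klf9 and Klf13, had 128, 130 and 128 CPM in BMSCs-OE-FNDC5, against 56.2, 58.6 and 59.8 CPM in BMSCs-OE-NC (log2 fold change 1.15, standard error 0.04, adjusted p = 3.0e-10 in edgeR). The short KLFs therefore did not move in one direction, with Klf16 higher and Klf9 and Klf13 lower. Klf15, a glucocorticoid-induced regulator of amino acid and glucose metabolism, had 15.9, 14.7 and 18.9 CPM in BMSCs-OE-FNDC5, against 38.0, 39.4 and 37.3 CPM in BMSCs-OE-NC (log2 fold change -1.21, standard error 0.09, adjusted p = 2.9e-07). Klf1, the erythroid activator of globin genes, had 31 to 44 counts in BMSCs-OE-FNDC5 and 18 to 24 counts in BMSCs-OE-NC (log2 fold change 1.32, adjusted p = 6.8e-04). Klf12, a CtBP-binding repressor like Klf3, had 4, 2 and 9 counts in BMSCs-OE-FNDC5 and 43, 27 and 46 counts in BMSCs-OE-NC (log2 fold change -2.50, standard error 0.46, adjusted p = 4.5e-04), a change that rests on few reads.

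The Sp factors bind the same GC boxes as the KLFs. Of 9 Sp genes, 5 were tested, with 0 higher, 3 lower and 2 that did not pass (median log2 fold change -1.48). Among all genes tested, 36.9% were higher and 38.8% lower. With the length trend removed, 1 was higher, Sp2 at 0.46 (adjusted p = 0.0025 in edgeR), and 3 were lower, with a median of -0.56. With library size only, 0 were higher and 4 lower. Sp1 had 10.1, 12.0 and 10.7 CPM in BMSCs-OE-FNDC5, against 29.1, 31.7 and 30.2 CPM in BMSCs-OE-NC (log2 fold change -1.48, standard error 0.09, adjusted p = 6.0e-08 in edgeR). After removal of the length trend, the log2 fold change of Sp1 was -0.56 and that of Sp3 was -2.52. Sp3 had 1.92, 0.818 and 1.59 CPM in BMSCs-OE-FNDC5, against 7.96, 7.53 and 9.60 CPM in BMSCs-OE-NC (log2 fold change -2.53, adjusted p = 3.5e-06). Sp4 was lower as well, at 0.621 ± 0.262 CPM in BMSCs-OE-FNDC5 and 2.59 ± 0.353 CPM in BMSCs-OE-NC (log2 fold change -2.04, adjusted p = 1.5e-04).

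Genes upstream of the KLFs were mixed, beside 36.9% of all genes tested as higher and 38.8% as lower. MEKK kinases act over MEK5 and ERK5 on MEF2 factors, a route that induces Klf2 and Klf4. The list for it had 13 genes tested, with 3 higher, 6 lower and 4 that did not pass (median log2 fold change -0.16). Beside the steps of that route the list held Hdac4, Hdac5, Hdac7, Krit1, Ccm2 and Pdcd10. Its counts therefore do not give a direction of the route. Mef2c, a transcription factor of the route, was lower at 6.55 ± 0.135 CPM in BMSCs-OE-FNDC5 and 17.0 ± 0.997 CPM in BMSCs-OE-NC (log2 fold change -1.38, adjusted p = 4.2e-07 in edgeR). Hdac4, a deacetylase that represses MEF2, was lower by a log2 fold change of -0.89. The kinase Map3k3 was lower at -0.56. Named after its values were seen, Mapk7, the gene of ERK5, was higher at 1.46 (adjusted p = 0.010 in edgeR). Its level was low, at 2.84 ± 1.96 CPM in BMSCs-OE-FNDC5 and 1.03 ± 0.238 CPM in BMSCs-OE-NC. After removal of the length trend Mef2c stood at -0.58, Hdac4 at -0.43, Map3k3 at 0.01 and Mapk7 at 2.06, and this list had 5 higher and 5 lower. Of 7 early genes of TGF-beta, 2 were higher, 4 lower and 1 did not pass (median -0.11), with the inhibitor Smad7 at -0.82 and its fellow inhibitor Skil at -2.22. With the length trend removed Smad7 stood at -0.31, and this list had 3 higher and 3 lower. Of 10 serum response and immediate early genes, 3 were higher, 5 lower and 2 did not pass (median -0.05), with Egr1 at -0.69, Egr2 at -0.91 and Jun at -0.17. With the length trend removed these were -0.40 for Egr1, -0.60 for Egr2 and 0.11 for Jun, and the list had 5 higher and 4 lower. Of the lists upstream of KLFs, the glucocorticoid-induced genes had no lower gene under TMM scaling. Of 5 tested, 4 were higher and 1 did not pass (median 0.52), with the phosphatase Dusp1 at 0.83, the kinase Sgk1 at 0.81 and the clock gene Per1 at 0.52. Other genes of the list, named after their values were seen, did not move as far. Tsc22d3 was higher at 0.18 and changed sign with library size only. Fkbp5 did not pass at -0.01 (adjusted p = 0.91 in edgeR), and Zbtb16 had 0 counts. With library size only this list had 3 higher and 2 lower, with Dusp1 at 0.46, Sgk1 at 0.44 and Per1 at 0.15, and with the length trend removed Per1 stood at 0.99. Klf9 and Klf15, which glucocorticoids are known to induce, were lower in the same libraries.

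Partners and target genes of the KLFs also went both ways, as did all genes tested, with 36.9% higher and 38.8% lower. Of 10 corepressors and coactivators tested, 5 were higher and 5 lower (median -0.02), and Ep300 and Kat2b were not analysed here. Within this list the related genes Sin3b at 0.92 and Sin3a at -0.88 differed in direction, as did Ctbp1 at 0.32 and Ctbp2 at -1.07. These 4 genes were named after their values had been seen, and Ctbp1 changed sign with library size as the only scaling. With the length trend removed, Sin3b was 0.52, Sin3a -0.30, Ctbp1 0.33 and Ctbp2 -0.65. Of 9 ubiquitin ligases and deubiquitinases known to act on KLFs, 2 were higher, 5 lower and 2 did not pass (median -0.49), with the ligases Itch at -1.72, Siah1 at -0.59 and Smurf1 at -0.49. Smurf1 stood at 0.16 with the length trend removed, when the list had 4 higher and 4 lower and a median of -0.03. Of 20 target genes of KLFs, 17 were tested, with 7 higher, 8 lower and 2 that did not pass (median -0.09). Among them Vcam1, an adhesion molecule repressed by Klf2 and Klf4 in endothelium, had 14.0 ± 0.661 CPM in BMSCs-OE-FNDC5 and 32.6 ± 0.729 CPM in BMSCs-OE-NC (log2 fold change -1.22, adjusted p = 5.3e-08 in edgeR). The receptor Tgfbr1 had 2.54 ± 0.409 CPM in BMSCs-OE-FNDC5 and 14.4 ± 1.70 CPM in BMSCs-OE-NC (log2 fold change -2.50, adjusted p = 8.0e-08), and Smad7 was also among the genes named by the rule. With the length trend removed, Vcam1 stood at -0.76 and Tgfbr1 at -1.76. Named after its values were seen, Cdkn1a, the cell cycle inhibitor that Klf4 and Klf6 are known to activate, was higher at a log2 fold change of 2.64 (adjusted p = 8.4e-13). Klf4 was higher and Klf6 lower in the same libraries. Also named after their values were seen, Acta2 at 1.54, Tagln at 1.12 and Ccnd1 at 0.61 were higher, and S1pr1 at -2.59 was lower. The part of KLFs in the levels of these target genes was not tested. Of 8 adipocyte factors, 5 were tested, with 1 higher, 2 lower and 2 that did not pass (median -0.02). Cebpd was lower at -0.43 and Ebf1 at -1.02. Cebpa, also named after its values were seen, was higher at 0.89 (adjusted p = 2.0e-07 in edgeR). With the length trend removed, Cebpd stood at -0.82 and Ebf1 at -0.68.

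**Figure D5:**
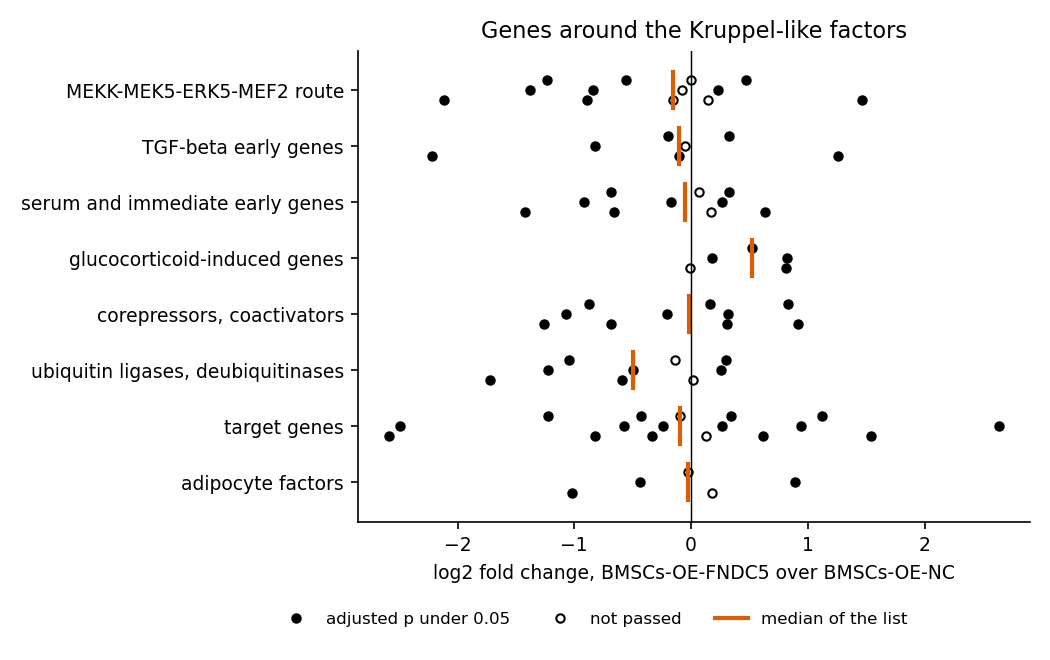
Log2 fold changes (BMSCs-OE-FNDC5 over NC) of the tested genes in 8 lists around the KLFs, with filled points for genes at an adjusted p under 0.05 in edgeR, open points for the others and a bar at the median of each list. Medians ran between -0.49 for the ubiquitin enzymes and 0.52 for the glucocorticoid-induced genes, and each list but that of the glucocorticoid-induced genes had passing genes on both sides of 0.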

How the data were processed

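RNA-seq of 3 BMSCs-OE-FNDC5 and 3 BMSCs-OE-NC libraries was analysed from the gene counts that the authors deposited as whole numbers, not normalized. Per the labels' processing notes, HTSeq 0.6.0, HISAT2 2.1.0, Bowtie2 2.2.3, TopHat2, CASAVA and DESeq2 were used, without a strand setting. These notes name the mouse build mm10 and the labels an extraction from retinas, whereas the table holds rat identifiers. The rat build is not given in the sources used here. FPKM values deposited by the authors equal the count divided by gene length and by 1 constant per library. These constants were 14650508 to 15122419 in BMSCs-OE-FNDC5 and 20200453 to 20677543 in BMSCs-OE-NC, which are not the total counts. The deposited FPKM, and the alternatives on FPKM, thus carry a scaling between libraries beyond library size.

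Genes were filtered with filterByExpr (minimum count 10, minimum total 15), scaled by TMM and compared with edgeR 4.0.16 (glmQLFit, glmQLFTest, R 4.3.3) with group as the only term, over 12104 of 16786 genes with a count. The procedure was tested on simulated data. Within-library ratios were compared by exact permutation tests, two-sided. The members and gene lists were chosen with earlier results of these data known. All 10 KLFs, every tested further KLF, Sp1 and Sp3 were named, and in each other list up to 3 of the passing genes by smallest p, among those that moved in the majority direction of the list. The values of 1 gene named by this rule are not reported here. Alternatives used other scalings, filters, DESeq2 1.42.0, limma 3.58.1 (voom, and log2 FPKM), a replicate block, an offset for the trend with gene length (lowess, span 0.3) and single libraries left out. Chi-square values per degree of freedom of 3.85 to 7.95 within groups showed no library deposited more than once. Python 3.11.15 with matplotlib 3.10.9 made the figures.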

Additional observations from a re-analysis of the deposited data

How the results depend on the processing

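Klf4, Klf6, Klf7, Klf9 and Klf13 kept their direction and their side of the threshold in all 17 alternatives, with log2 fold changes of 0.64 to 1.09 for Klf4, -1.55 to -0.96 for Klf6, -1.77 to -0.67 for Klf7, -2.32 to -1.61 for Klf9 and -1.45 to -0.73 for Klf13. Klf2, which had no call, changed sign to 0.013 with the scaling of DESeq2 in edgeR, 0.0085 in DESeq2, 0.0049 on log2(FPKM + 1) and 0.0050 on log2(FPKM + 0.1), lay between -0.095 and 0.026 with single libraries left out, and passed at -0.39 with library size only and at -0.44 without the length trend. Klf10 was -0.029 with upper-quartile scaling and -0.29 with library size only, and 0.33 without the length trend. Klf5 missed the threshold in DESeq2 (-0.49) and without the length trend (-0.17), and lay between -0.61 and -0.39 with single libraries left out. Klf11 missed it on log2(FPKM + 1) (-0.31), on log2(FPKM + 0.1) (-0.48) and without the length trend (-0.10), and lay between -0.67 and -0.35 with single libraries left out. Klf3 missed it without the length trend (-0.19). The causes were not tested. The length-trend offset left 2 KLFs higher, against 1, and a fold threshold of 1 left 3 lower, against 7. Of all genes, 4623 were higher and 4060 lower with the length-trend offset. With library size only 2659 were higher, and with the fold threshold 1191 were higher and 2124 lower, against 4469 and 4692. The number of lower KLFs was 5 to 7 with single libraries left out, and the group differences in within-library ratios were -1.10 to -0.96 for Klf2/Klf4, -1.18 to -1.06 for Klf9/Klf13, 0.34 to 0.81 for Klf10/Klf11, 0.14 to 0.30 for Klf6/Klf7 and -0.46 to -0.15 for Klf3/Klf5. Over 1.5-fold from the main value were Klf10/Klf11 without BMSCs-OE-FNDC5 replicate 2 (0.34), Klf6/Klf7 without BMSCs-OE-FNDC5 replicate 2 (0.14) and Klf3/Klf5 without BMSCs-OE-FNDC5 replicate 1 (-0.15) or 2 (-0.46). In an alternative chosen after seeing the data, removal of the length trend gave -1.52 for Klf2/Klf4, -0.38 for Klf9/Klf13, 0.13 for Klf6/Klf7 and -0.02 for Klf3/Klf5.

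Replicate numbers did not pair the libraries, as deviations of same-numbered libraries correlated at 0.02, -0.01 and -0.01. With a replicate block, 4399 genes were higher and 4628 lower, and Klf11 missed the threshold (-0.53, adjusted p = 0.053 in edgeR). Low counts limit Klf5, Klf7 and Klf12.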
